A study of Mus musculus with 8 samples.

Results

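The 44 genes described here belong to the early N-glycan pathway and were measured in germ cells of 15-day control and *Mgat2* cKO mice, out of 55357 genes in the deposited table. The genes were chosen by name: 17 act in the synthesis of the dolichol-linked precursor, 9 encode subunits of oligosaccharyltransferase, 8 act in glucose and mannose trimming, 8 are lectin chaperones and quality-control factors, and 2 remove glycans in the cytosol. All 44 passed the filter on low values (a length-scaled level, TPM, of 1 or more in any sample), as did 20187 genes in all. The samples were 4 *Mgat2*[F/F] males, here control, and 4 *Mgat2*[F/F]:*Stra8*-iCre males, here cKO, on C57BL/6 and 15 days old. Both genotypes carried the floxed alleles of *Mgat2*, whereas the Cre transgene, which is driven by the *Stra8* promoter and acts from spermatogonia on, was in the cKO alone, so that Cre itself and loss of *Mgat2* cannot be told apart. RNA was taken from dissociated, filtered tubule cells and not from a sorted cell type.

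An N-glycan is first built on the lipid dolichol at the membrane of the endoplasmic reticulum, sugar by sugar, by the ALG enzymes. Oligosaccharyltransferase then moves the finished oligosaccharide to asparagines of new proteins, glucosidases and mannosidases trim it, and calnexin and calreticulin hold the trimmed glycoprotein while it folds. UGGT enzymes put a glucose back on proteins that are not yet folded. MGAT2 acts later, in the Golgi, where complex N-glycans are made. In testis, calmegin (*Clgn*) and calreticulin 3 (*Calr3*) are germ cell relatives of calnexin (*Canx*) and calreticulin (*Calr*), and *Clgn* is known for its expression in meiotic spermatocytes and its need in the maturation of sperm surface proteins.

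The libraries held 12584726 to 15907505 expected counts, so that 3 counts, taken as the smallest signal, were worth 0.189 to 0.238 CPM, the unit of counts scaled to library size. The deleted gene, *Mgat2*, averaged 56.4 ± 16.9 CPM in the 4 controls and 27.2 ± 10.8 CPM in the 4 cKO samples (SD), with values of the genotypes overlapping (two-sided exact permutation test, p = 0.0857, where 0.0286 is the smallest possible), and 11.6% of its exonic length is shared with *Rpl36al*. Summed markers of all germ cells were at 1544 to 1878 TPM in control and 1433 to 1593 TPM in cKO, and those of early spermatocytes at 617 to 1047 and 637 to 871 TPM. Single genes of these lists differed in both directions, with log2 fold changes from -0.44 to 0.22 and from -0.54 to 0.33. The 7 spermatogonia markers summed to 301 to 431 and 324.5 to 453 TPM, with log2 fold changes from -0.48 to 0.34. Among all these genes edgeR called 0 and DESeq2 only *Id4* (adjusted p = 0.0387). The 9 markers of mid to late pachytene spermatocytes summed to 599 to 2311 TPM in control and 250 to 769 TPM in cKO, with replicate 1 the highest in both genotypes. The 7 spermatid markers summed to 22.8 to 70.6 TPM in control and 10.9 to 26.9 TPM in cKO. Of these, *Acrv1*, *Tnp2*, *Prm1* and *Prm2* were under 1 TPM in every sample, and *Acr* and *Dbil5* had log2 fold changes of -1.90 and -1.05 (adjusted p = 0.473 and 0.593 from edgeR, 0.0330 and 0.440 from DESeq2). *Tnp1*, at 0 to 1.73 TPM in control and 0 to 6.06 TPM in cKO, had the opposite sign (log2 fold change 1.71, edgeR adjusted p = 0.734). It had at most 7 counts in a sample. Cells labelled germ cells also held Sertoli cell transcripts, with 8 markers summing to 6254 to 7810 TPM in control and 6455 to 7977 TPM in cKO, and 5 Leydig cell markers at 35.2 to 87.7 and 48.3 to 71.9 TPM.

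Most of the pathway differed little between genotypes. The log2 fold change of cKO over control had a median of 0.04 over the 44 genes, against 0.01 over all genes tested, with 18 negative and 26 positive values. It was under 0.2 in size for 38 of the 44 genes (86.4%), and for 55.8% of all genes tested, whose median SE was 0.21, against 0.11 for the 44. With edgeR's quasi-likelihood test, in which 0.0396% of all genes passed an adjusted p of 0.05, 0 of the 44 passed. At an unadjusted p under 0.05, 3 genes were lower and 0 higher in cKO, against 6.28% and 2.62% of all genes. These were *Clgn*, *Uggt2* and *Man2c1*. DESeq2, which called 1.41% of all genes lower, called only *Man2c1* among the 44, and limma-voom called 0. The highest cKO sample was below the lowest control for *Uggt2* and *Man2c1*, and the lowest cKO sample above the highest control for 0 of the 44, where 3.03% and 2.47% of all genes had such values. A share of 2 in 44 is close to this background.

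**Figure D1:**
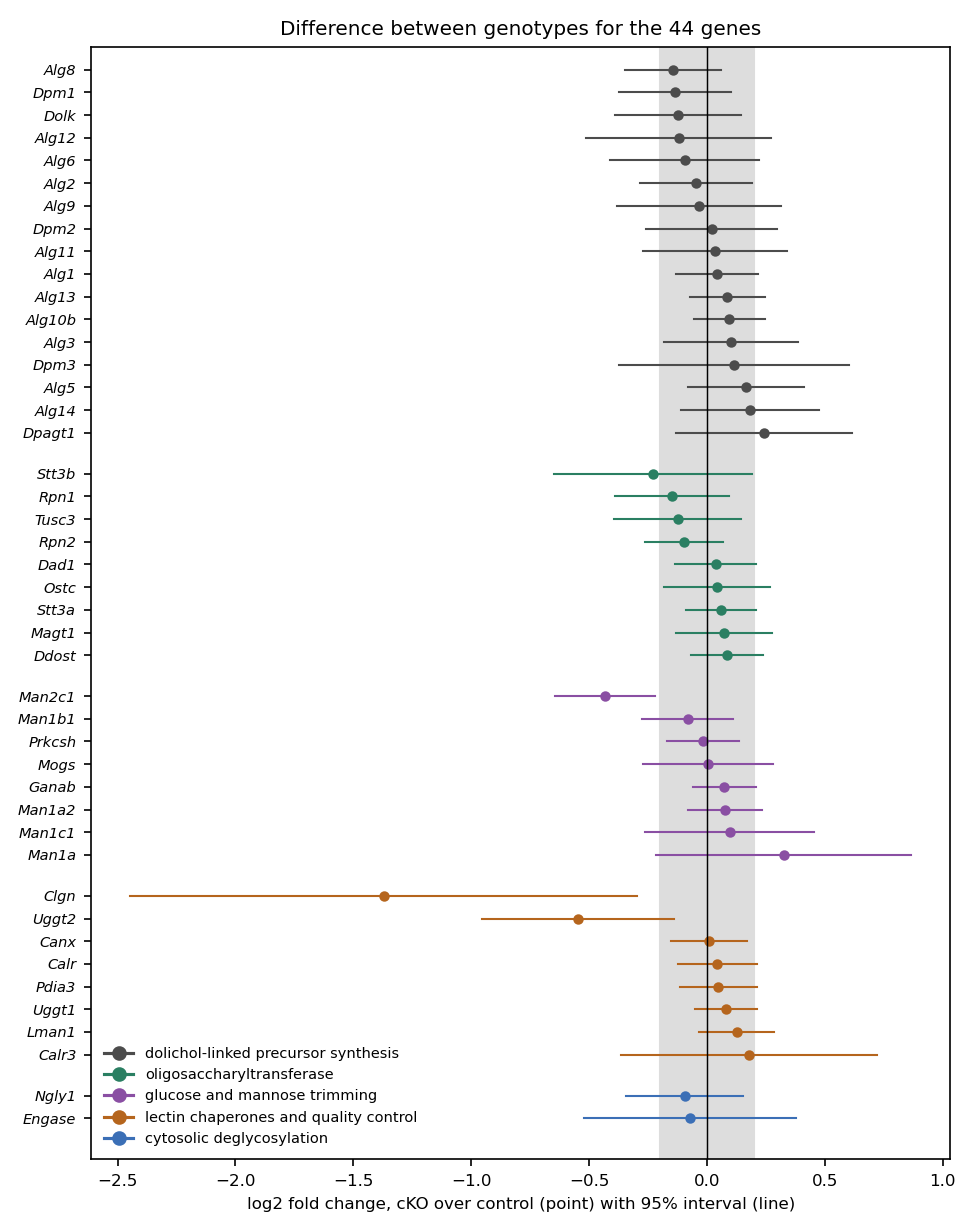
Log2 fold change of cKO over control (x axis) for each of the 44 genes, grouped and coloured by role. Points carry 95% intervals (lines) worked out from edgeR's F statistic. The grey band marks 0.2 on either side of no difference and holds the points of 38 genes, while *Clgn*, *Uggt2* and *Man2c1* have intervals that end below 0.

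Levels per length spanned a wide range. The mean TPM over the 8 samples ran from 2.00 for *Man1a*, an early mannosidase, to 884 for *Calr*. The dolichol enzymes ran from 7.18 to 147 TPM, the subunits of oligosaccharyltransferase from 25.4 to 258 TPM, the trimming enzymes from 2.00 to 115 TPM and the chaperones and quality-control genes from 4.36 to 884 TPM. The cytosolic enzymes *Engase* and *Ngly1* were at 4.78 and 26.4 TPM. Differences between the genotypes were small next to this range.

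**Figure D2:**
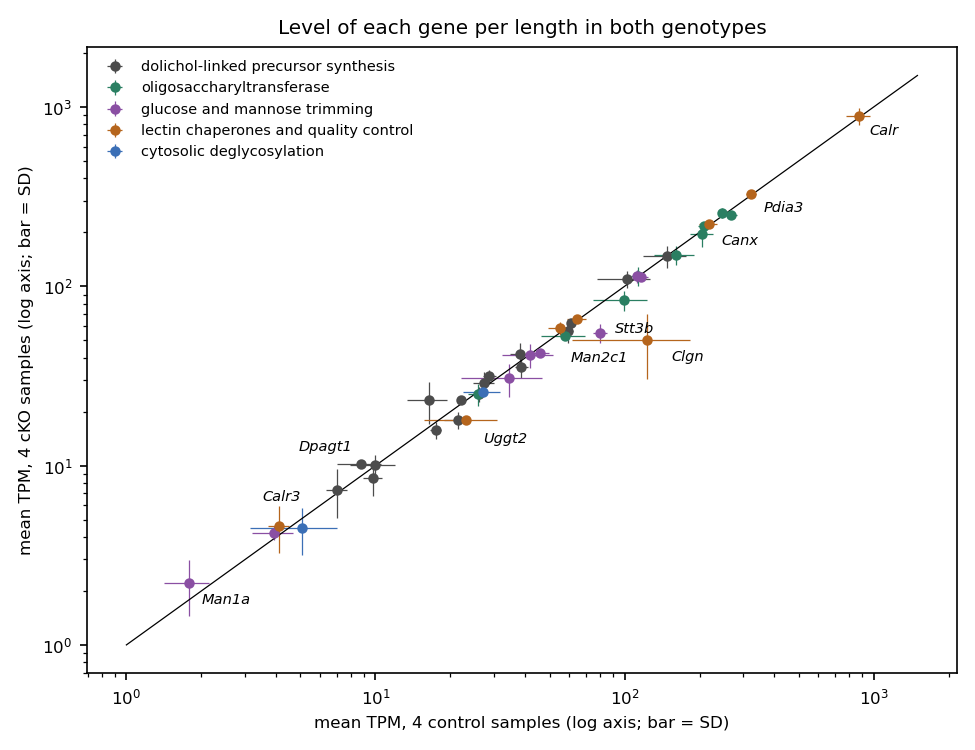
Mean TPM of each of the 44 genes in the 4 control samples (x axis) and the 4 cKO samples (y axis), both on log axes, with SD as bars, colours for the roles and a line of equal level. Most genes lie on the line over the whole range, and *Clgn*, at 123 TPM in control and 50.2 TPM in cKO, lies the farthest below it.

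The windows just upstream of the start are shown for the general chaperones, which differed little, and for the 2 genes with no overlap between genotypes. They are RefSeq promoter sequences of build GRCm38.p6, 5′ to 3′ on the strand of the gene, and capitals mark the endoplasmic reticulum stress response element (ERSE) searched for as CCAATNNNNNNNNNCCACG on both strands. *Calr* is shown at chr8:84846932-84847181 on the minus strand, *Canx* at chr11:50325674-50325923 on the minus strand, *Uggt2* at chr14:119099435-119099684 on the minus strand and *Man2c1* at chr9:57130527-57130776 on the plus strand.
Calr: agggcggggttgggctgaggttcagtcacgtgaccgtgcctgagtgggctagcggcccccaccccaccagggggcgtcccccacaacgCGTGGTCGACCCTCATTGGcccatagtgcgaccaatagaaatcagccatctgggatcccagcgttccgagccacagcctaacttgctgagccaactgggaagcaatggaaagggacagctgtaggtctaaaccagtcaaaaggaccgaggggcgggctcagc
Canx: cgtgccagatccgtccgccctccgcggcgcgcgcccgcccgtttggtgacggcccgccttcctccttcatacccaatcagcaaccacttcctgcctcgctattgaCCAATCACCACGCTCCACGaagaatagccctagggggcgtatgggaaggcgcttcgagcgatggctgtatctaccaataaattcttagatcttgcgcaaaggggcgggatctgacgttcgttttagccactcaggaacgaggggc
Uggt2: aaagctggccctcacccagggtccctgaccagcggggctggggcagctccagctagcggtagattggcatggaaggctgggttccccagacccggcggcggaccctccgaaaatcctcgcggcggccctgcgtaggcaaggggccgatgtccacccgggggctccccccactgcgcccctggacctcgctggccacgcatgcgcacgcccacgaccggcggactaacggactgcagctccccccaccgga
Man2c1: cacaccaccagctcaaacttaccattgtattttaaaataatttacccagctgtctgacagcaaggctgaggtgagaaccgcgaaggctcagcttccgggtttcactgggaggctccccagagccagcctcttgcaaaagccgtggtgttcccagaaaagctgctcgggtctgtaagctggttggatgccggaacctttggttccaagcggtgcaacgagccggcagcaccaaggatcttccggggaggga
The element read on the strand of the gene in *Canx* and on the other strand in *Calr*. Of the 44 genes, 36 had an entry in the table, with 38 windows, and *Alg11*, *Alg2*, *Clgn*, *Dpagt1*, *Lman1*, *Man1a2*, *Ostc* and *Tusc3* had none. The element was in 3 of these 38 windows (7.89%), those of *Alg12*, *Calr* and *Canx*, and in 0.119% of all 32851 windows of the same length, which reach past the start as well. Among other genes of the pathway it was in the windows of *Hspa5*, *Hsp90b1*, *Pdia6* and *Syvn1*. The search was chosen after the values were seen. The log2 fold changes of these 7 genes ran from -0.15 for *Syvn1* to 0.14 for *Hspa5*, and 0 passed edgeR's test.

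The ALG enzymes and the dolichol-phosphate mannose synthase subunits differed little. The 17 genes had log2 fold changes from -0.15 to 0.24 with a median of 0.03, and 16 were under 0.2 in size. *Dpagt1*, whose product adds the first sugar to dolichol phosphate, had the largest difference. It was at 12.8, 10.5, 7.46 and 10.4 CPM in control replicates 1 to 4 and at 12.3, 11.9, 12.3 and 12.1 CPM in cKO. The cKO samples lay close together inside the range of the controls (log2 fold change 0.24, SE 0.17, edgeR adjusted p = 0.69). *Alg8*, a glucosyltransferase of the late steps, had the smallest p of this group. Its control values were 32.7, 32.9, 35.6 and 30.8 CPM. In cKO it was at 30.9, 31.3, 28.1 and 28.9 CPM, so that the genotypes overlapped (log2 fold change -0.15, SE 0.09, edgeR adjusted p = 0.667). *Alg1*, which adds the first mannose, shares 59.9% of its exonic length with *Eef2kmt* on the other strand, and the libraries were not stranded.

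The subunits of oligosaccharyltransferase had small differences as well, with a median log2 fold change of 0.04 over 9 genes and a range from -0.23 to 0.09. Its catalytic subunit is either STT3A, which works alongside the translocon, or STT3B, which also acts on sites that were skipped. *Stt3b* was at 348, 219, 243 and 194 CPM in control and at 260.0, 198, 198 and 200.3 CPM in cKO. Replicate 1 was highest in each genotype, and the log2 fold change of -0.23 (SE 0.18, edgeR adjusted p = 0.731) was -0.03 without control replicate 1, -0.34 without cKO replicate 1 and -0.14 without both. *Rpn1*, a structural subunit, was at 356, 272, 265 and 265 CPM in control and at 303, 237, 261 and 244 CPM in cKO, again with replicate 1 the highest and with overlap (log2 fold change -0.15, SE 0.11, edgeR adjusted p = 0.709). Its log2 fold change was -0.03 without control replicate 1, -0.23 without cKO replicate 1 and -0.11 without both. *Ddost*, at a log2 fold change of 0.09, shares 45.8% of its exonic length with *Pink1*.

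Among the trimming enzymes, *Man2c1*, a cytosolic alpha-mannosidase that degrades free oligosaccharides, stood apart from the rest of its group. It lies on chromosome 9 of GRCm39 from 57037878 to 57050006. Its control values were 56.4, 50.3, 56.9 and 50.4 CPM. In cKO it was at 34.7, 41.8, 43.7 and 38.3 CPM. Every cKO sample was lower than every control sample, with means of 53.5 ± 3.62 and 39.6 ± 3.96 CPM (SD, n = 4 each). The level was 1.35-fold higher in control, a log2 fold change of -0.43 (SE 0.10, 95% interval -0.65 to -0.22), with an adjusted p of 0.229 from edgeR and 0.00637 from DESeq2. The antisense RNA *Man2c1os* overlaps 7.45% of its exonic length, and reads of the 2 strands cannot be told apart. The other 7 genes of this group ran from -0.08 to 0.33, with the glucosidases *Mogs*, *Ganab* and *Prkcsh* at 0.00, 0.07 and -0.02. *Man1a*, at 0.33, was at 2.46 to 3.75 CPM in control and 3.28 to 5.46 CPM in cKO, which overlapped.

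Among the lectin chaperones, the general pair differed little and *Clgn* had lower values in cKO. *Canx*, the membrane-bound lectin chaperone, was at 371, 335, 391 and 333 CPM in control and at 377, 338, 368 and 355 CPM in cKO. The genotypes covered the same range (log2 fold change 0.01, SE 0.07, 95% interval -0.15 to 0.17). *Calr*, its soluble partner, was at 818, 967, 938 and 925 CPM in control and at 846, 960.2, 960.1 and 995 CPM in cKO, with a log2 fold change of 0.04 (SE 0.08, 95% interval -0.13 to 0.21). Replicate 1 was the lowest for *Calr* in both genotypes. *Pdia3*, the disulfide isomerase that works with both, was at a log2 fold change of 0.05, and 3 neighbours overlap its exons.

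*Clgn* had the largest difference of the 44 genes. It lies on chromosome 8 of GRCm39 from 84116307 to 84155187. Its values were 384, 155, 224 and 125 CPM in control and 139, 65.7, 76.1 and 62.5 CPM in cKO. The cKO replicates 2, 3 and 4 were below all controls, while cKO replicate 1 lay above control replicate 4. The means were 222 ± 115 CPM and 85.8 ± 36.0 CPM (SD, n = 4 each), and the level was 2.59-fold higher in control. The log2 fold change of -1.37 (SE 0.45, 95% interval -2.45 to -0.30) did not pass the test (adjusted p = 0.467 from edgeR and 0.0834 from DESeq2). It was -0.97 without control replicate 1, -1.70 without cKO replicate 1 and -1.31 without both, a setting chosen after the data were seen. In bulk RNA, fewer cells of a type and less RNA per cell cannot be told apart.

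The 9 pachytene spermatocyte markers all had negative log2 fold changes, with a median of -1.72, but edgeR called 0 of the 9 and DESeq2 called only *Piwil1*, and 2 were under an unadjusted p of 0.05 in edgeR. Among them, *Mybl1* was at 71.5 to 89.4 CPM in control and 66.3 to 81.0 CPM in cKO (log2 fold change -0.14), and the genotypes overlapped. In both genotypes *Clgn* and the marker *Piwil1* were highest in replicate 1 and lowest in replicate 4. *Piwil1* was at 646, 206, 309 and 168 CPM in control and at 155, 58.2, 64.9 and 43.5 CPM in cKO. The markers' part in the *Clgn* result was not tested. The Sertoli markers had a median log2 fold change of 0.06.

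**Figure D3:**
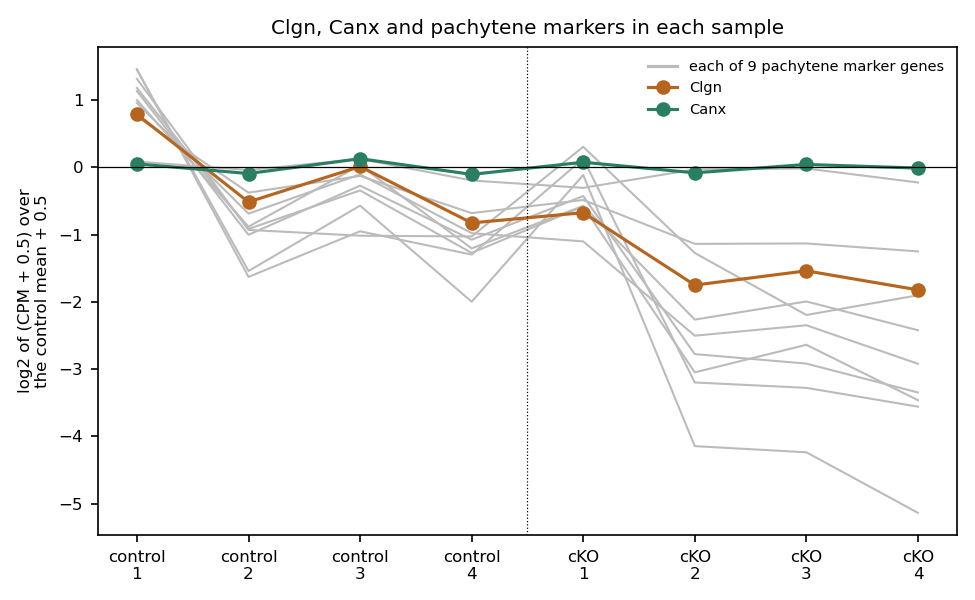
Level in each sample (x axis) as the log2 of CPM + 0.5 over the control mean + 0.5 (y axis) for *Clgn*, *Canx* and each of 9 pachytene marker genes in grey. *Clgn* and most markers are highest in control replicate 1 and lower in cKO replicates 2 to 4, whereas *Canx* stays near 0.

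*Calr3*, the germ cell relative of *Calr*, was scarce. It was at 4.07, 4.08, 3.60 and 3.51 CPM in control and at 2.66, 5.56, 4.47 and 4.61 CPM in cKO. The cKO values spread on both sides of the controls (log2 fold change 0.18, SE 0.25, 95% interval -0.37 to 0.72), and 31.5% of the exonic length is shared with the noncoding *Gm46043*.

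*Uggt2*, the less abundant of the folding sensors, was lower in cKO by CPM. It lies on chromosome 14 of GRCm39 from 119221211 to 119337272. Its values were 52.5, 31.7, 50.4 and 32.3 CPM in control and 30.5, 22.9, 31.5 and 29.4 CPM in cKO. The genotypes met at 31.7 and 31.5 CPM, with control replicates 1 and 3 well above the rest. The level was 1.46-fold higher in control (log2 fold change -0.55, SE 0.18, 95% interval -0.95 to -0.14), with an adjusted p of 0.437 from edgeR and 0.140 from DESeq2. By TPM, which also depends on the isoforms that RSEM assigns, control was at 24.0, 17.2, 33.4 and 18.1 and cKO at 17.7, 17.8, 18.1 and 18.1, so that the genotypes overlapped, and limma-trend gave a log2 fold change of -0.30. *Uggt1* was at 204 to 221 CPM in control and 219 to 231 CPM in cKO, with a log2 fold change of 0.08. *Ngly1*, the cytosolic peptide N-glycanase, was at 40.0, 34.9, 40.2 and 31.3 CPM in control and 37.4, 31.5, 37.3 and 31.1 CPM in cKO, which overlapped throughout (log2 fold change -0.09, SE 0.11).

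**Figure D4:**
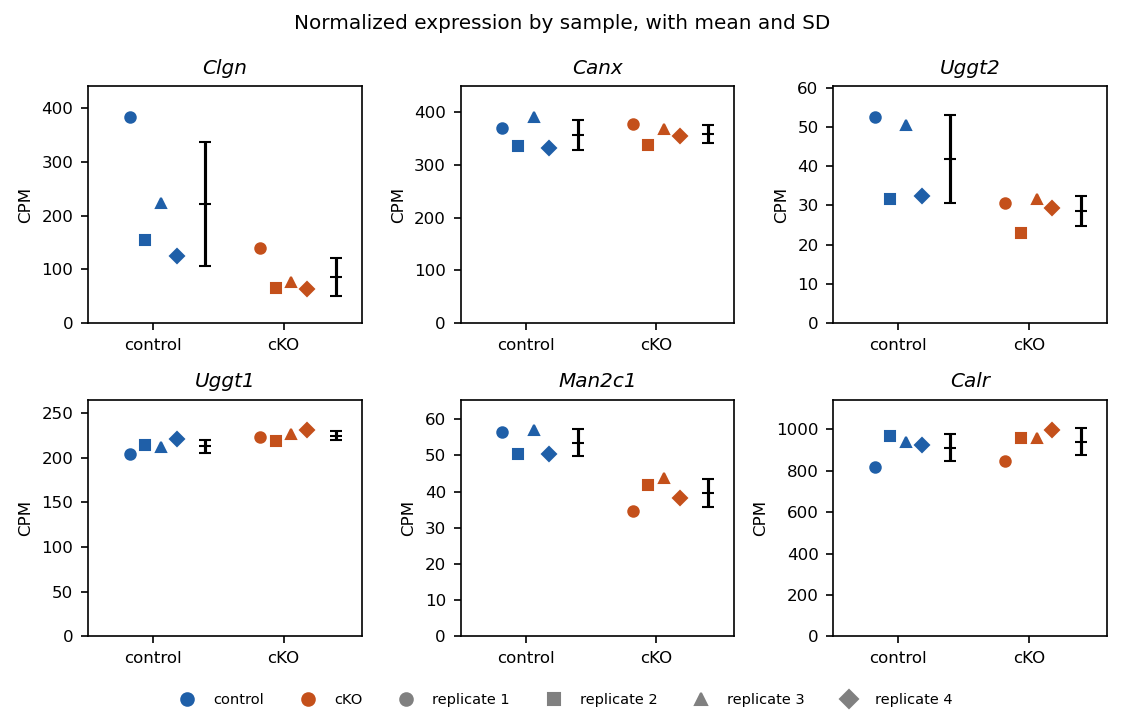
CPM in each sample (y axes, from 0) for 6 chaperone, sensor and trimming genes, with blue for control, orange for cKO, a symbol for each replicate number and the mean and SD of 4 samples in black. *Man2c1* separates the genotypes, *Uggt2* does so by a narrow gap, *Clgn* overlaps in 1 sample, and *Canx*, *Uggt1* and *Calr* have close means.

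Ratios of TPM between alternative forms of the same step need no scaling between libraries. They do not remove a difference in cell mix, whose part was not tested. *Clgn* over *Canx* was 0.957, 0.438, 0.502 and 0.345 in control and 0.357, 0.177, 0.196 and 0.175 in cKO. It was lower in 3 cKO samples than in every control, and the mean log2 ratio differed by -1.27 (95% t interval -2.24 to -0.29). The two-sided exact permutation test gave p = 0.0571, and 0.343 after adjustment over the 6 ratios. For the other ratios the difference in log2 ratio was 0.08 for *Calr3* over *Calr* (interval -0.40 to 0.57), -0.13 for *Stt3b* over *Stt3a* (interval -0.82 to 0.57), -0.05 for *Tusc3* over *Magt1* (interval -0.58 to 0.48), -0.35 for *Uggt2* over *Uggt1* (interval -0.97 to 0.27) and -0.41 for *Man1a2* over *Man1a* (interval -1.45 to 0.63). Their adjusted exact permutation p ran from 0.857 to 0.971. With other processing settings the *Uggt2* over *Uggt1* difference ran from -0.60 to -0.35, and without single samples from -0.50 to -0.16. Over all settings, the smallest adjusted p of the exact tests was 0.0857, both for this ratio and for *Clgn* over *Canx*. *Tusc3* and *Magt1* encode the alternative oxidoreductase subunits of the STT3B complex.

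**Figure D5:**
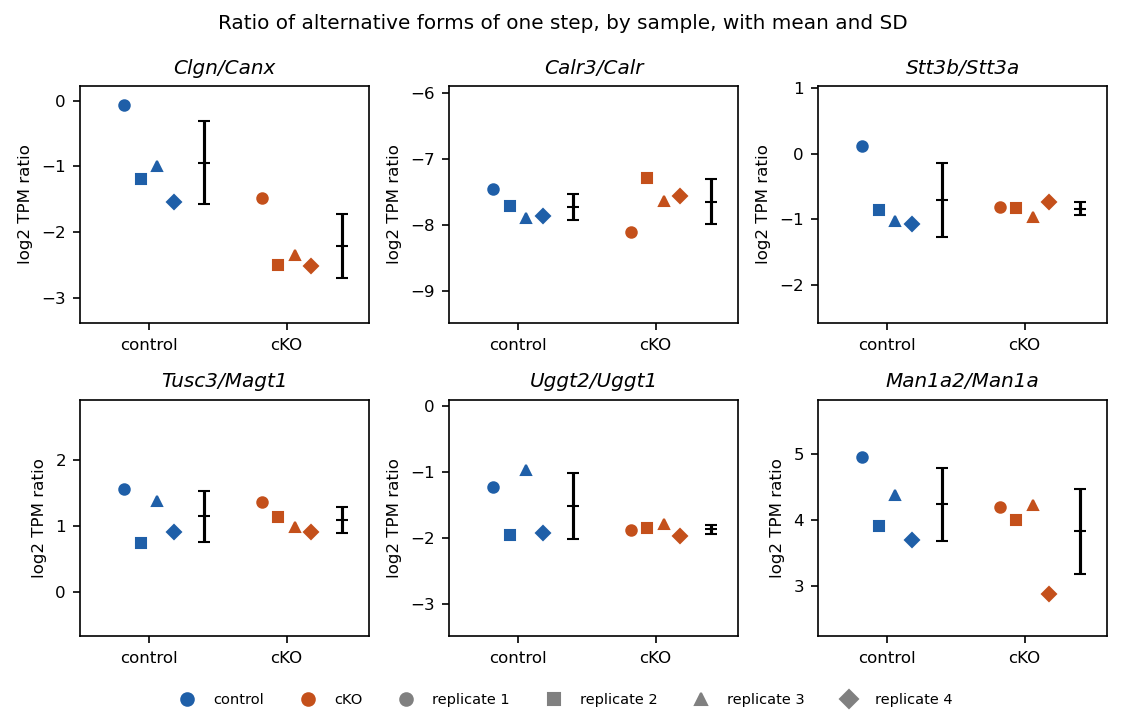
Log2 TPM ratio in each sample (y axes, all spanning the same height) for 6 pairs of alternative forms, by genotype (x axes), with a symbol for each replicate number and the mean and SD of 4 samples in black. *Clgn* over *Canx* has the largest shift (-1.27), and the other 5 pairs overlap widely in TPM.

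Of 40 other genes of the pathway that were listed, 38 passed the filter on low values, and *Pdilt* and *Lman1l* did not. EdgeR and DESeq2 each called 0, and at an unadjusted p under 0.05 3 were lower (7.89%, against 6.28% of all genes) and 3 higher (7.89%, against 2.62%). By CPM, the cKO samples were all above the controls for 3 of the 38 (7.89%, against 2.47% of all genes) and all below for 1 (2.63%, against 3.03%). In the supply of dolichol and sugar donors, *Mpi* and *Gfpt1*, the entry enzymes to mannose and hexosamine synthesis, had lower means in cKO. *Mpi* was at 99.2, 54.5, 73.6 and 57.8 CPM in control and 58.2, 42.5, 43.1 and 47.8 CPM in cKO, with overlap in 1 cKO sample (log2 fold change -0.57, SE 0.19, edgeR adjusted p = 0.443). It shares 25.8% of its exonic length with *Fam219b*. *Gfpt1* was at 221, 149, 177 and 138 CPM in control and 148, 120.3, 135 and 113 CPM in cKO, which overlapped. Its log2 fold change was -0.41 (SE 0.15, adjusted p = 0.465 from edgeR and 0.176 from DESeq2). *Pmm2*, the phosphomannomutase that follows MPI, was at 43.5, 34.9, 36.9 and 37.1 CPM in control and 30.1, 33.7, 31.8 and 27.8 CPM in cKO, with every cKO sample lower by CPM (log2 fold change -0.30, edgeR adjusted p = 0.437). By TPM, *Pmm2* was at 35.7 to 60.55 in control and 31.95 to 41.93 in cKO, which overlapped. *Pgm3*, a later enzyme of hexosamine synthesis, was higher in every cKO sample by CPM (47.0 ± 0.919 and 53.9 ± 2.40 CPM, SD, n = 4 each). By TPM it was at 36.27 to 38.44 in control and 38.23 to 41.48 in cKO, which overlapped.

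All 9 tested genes of the folding and cargo lectin list had positive log2 fold changes, from 0.02 to 0.18 with a median of 0.14. Their median SE was 0.07, edgeR and DESeq2 called 0 of them, and 10364 of all 20187 genes tested were positive. The disulfide isomerases *Pdia4* and *P4hb* were higher in every cKO sample by CPM, at log2 fold changes of 0.18 and 0.14 (edgeR adjusted p = 0.478 and 0.519). By TPM, *Pdia4* overlapped, at 158.26 to 183.51 in control and 179.5 to 198.88 in cKO, while *P4hb* did not. *Hspa5*, the abundant chaperone BiP, was at 1084 to 1617 CPM in control and 1267 to 1661 CPM in cKO, which overlapped. The 3 small subunits of oligosaccharyltransferase had log2 fold changes from -0.22 to 0.10, with a median of -0.19, the value of *Ost4*. *Ost4* shares 57.1% of its exonic length with *Agbl5* on the other strand. The 10 genes of mannose trimming and degradation ran from -0.15 to 0.09.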

How the data were processed

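RNA-seq was analysed for germ cells of 8 mice, 4 control and 4 cKO, grouped by the genotype that the labels give. The authors aligned reads of non-stranded polyA libraries to mm39 with STAR 2.7.9a and quantified genes with RSEM 1.3.3. The deposited expected counts are RSEM estimates without normalization between samples, and were rounded, since 15.2% of those above 0 were not whole. The deposited TPM values are scaled within each library for length and depth. The libraries held 12584726 to 15907505 expected counts, and the 3-count floor covers counting error only. The 95% intervals and p-values rest on the spread between these samples.

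Genes entered when any sample reached a TPM of 1. Genotypes were fitted with edgeR 4.0.16 on the 8 samples, with TMM scaling, robust dispersions and the quasi-likelihood F-test on genotype, and p-values were adjusted by Benjamini-Hochberg over 20187 genes, with a threshold of 0.05. CPM are TMM-normalized, and log2 fold changes are cKO over control. Alternatives were DESeq2 1.42.0, limma 3.58.1 (voom, and trend on log2(TPM + 1) and log2(TPM + 0.1)), other normalizations and filters, the replicate number as a block, and leaving out each sample. Ratios and *Mgat2* were compared with exact permutation tests. Tests were checked on simulated counts. R was 4.3.3. Positions and exonic overlaps come from GENCODE on GRCm39, and promoter windows from RefSeq on GRCm38.p6.

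The 44 genes and the other lists were chosen with earlier results of these data known. Values in every sample are given for *Clgn*, *Calr3*, *Canx* and *Calr*, for the gene of each role with the largest difference and the one with the smallest p, and for genes that did not overlap between genotypes or were called by edgeR, with or without the block, or by DESeq2. Other genes of the pathway are named where they met these last criteria, and any others were named after their values were seen.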

Additional observations from a re-analysis of the deposited data

Results flagged for a closer look

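Within each genotype, a sample far from the other 3 was looked for in the CPM of the 44 genes and *Mgat2*, over 90 groups of 4 samples, of which chance picks about 1 in 20. A gap of this kind was found in 5 groups, and 4 of the samples were a replicate 1. *Rpn1* was at 356 CPM in control replicate 1, against 265 to 272 CPM in the other controls. *Stt3b* was at 260.0 CPM in cKO replicate 1, against 198 to 200.3 CPM, and *Pdia3* at 572 CPM, against 505 to 511 CPM. *Magt1* was at 47.2 CPM in cKO replicate 1, against 57.9 to 58.9 CPM. *Dolk* was at 19.0 CPM in control replicate 3, against 20.5 to 20.7 CPM.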

How the results depend on the processing

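Among all genes, 18 passed with upper-quartile normalization, 17 with library totals, 35 without the expression filter, 302 with DESeq2, and 0 with filterByExpr, limma-voom and either limma-trend fit, against 8 with edgeR's TMM fit. Without single samples 0 to 32 passed, and 855 without replicate 1 of both genotypes, a setting chosen after the data were seen. Of the 44 genes, DESeq2 called 1, against 302 of all 20187 genes tested. EdgeR without both replicate 1 samples also called 1, against 855 of 20187. It was *Man2c1* both times (edgeR adjusted p = 0.0149 without both replicate 1 samples). Leaving out single samples called 0 of the 44, against 0 to 32 of all genes. Without both replicate 1 samples, 2 of the 38 other genes of the pathway were called, against the same 855 of 20187. Higher in every cKO sample were 3 of the 44 with upper-quartile normalization (6.82%, against 3.24% of all genes), 1 without the filter (2.27%, against 1.83%), 0 to 3 without single samples (at most 6.82%, against 3.59% to 6.13%) and 7 without both replicate 1 samples (15.9%, against 8.10%). Lower in every cKO sample were 3 with library totals (6.82%, against 3.37%) and 2 to 4 without single samples (4.55% to 9.09%, against 3.89% to 9.09%). Without both replicate 1 samples 5 were lower (11.4%, against 10.5%). The cause of these shifts was not tested.

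The numbers 1 to 4 in the sample names do not pair the samples by any source, and same-numbered deviations from the genotype means correlated at 0.53, 0.14, 0.04 and 0.20, with 4 of 8 samples closest to their own number. With the replicate number as a block, edgeR called 1464 of the 20187 genes tested and DESeq2 1223. Both then called 3 of the 44 genes and 2 of the 38 other genes of the pathway, in edgeR *Clgn*, *Uggt2*, *Man2c1*, *Mpi* and *Gfpt1*. These shares are close to those over all genes tested. *Mgat2*, at an adjusted p of 0.47 in edgeR, 0.435 in limma-voom and 0.0633 in edgeR with the block, passed only with DESeq2 (log2 fold change -1.06, adjusted p = 0.0252) and with DESeq2 and the block (-1.08, adjusted p = 0.00171).

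The median of the oligosaccharyltransferase genes was -0.059 and -0.059 with the limma-trend fits, and ran from -0.057 to 0.073 when single samples were left out. Of the 44 genes, 24 kept their sign in every setting, among them *Clgn*, *Uggt2* and *Man2c1*, and the 20 others had log2 fold changes of at most 0.14 in size. With limma-trend on log2(TPM + 1) and log2(TPM + 0.1), the sign turned for *Alg6* (0.026 and 0.025), *Dpm1* (0.0043 and 0.0044), *Dpm2* (-0.078 and -0.079), *Stt3a* (-0.091 and -0.092), *Magt1* (-0.049 and -0.051) and *Man1a2* (-0.12 and -0.13). With DESeq2's size factors in edgeR and with DESeq2 it turned for *Mogs* (-0.0046 and -0.0046) and *Canx* (-0.00029 and -0.00039), and with upper-quartile normalization for *Prkcsh* (0.012). When single samples were left out, values ran from -0.041 to 0.17 for *Alg11*, -0.26 to 0.0024 for *Alg12*, -0.14 to 0.0098 for *Alg2*, -0.13 to 0.13 for *Alg9*, -0.0041 to 0.091 for *Calr*, -0.021 to 0.055 for *Canx* and -0.065 to 0.092 for *Dpm2*, and from -0.056 to 0.25 for *Dpm3*, -0.21 to 0.046 for *Engase*, -0.0022 to 0.18 for *Man1c1*, -0.10 to 0.066 for *Mogs*, -0.057 to 0.095 for *Ostc*, -0.046 to 0.028 for *Prkcsh* and -0.21 to 0.013 for *Tusc3*. Without both replicate 1 samples the sign turned for *Alg12* (0.023), *Alg9* (0.072), *Dad1* (-0.0019), *Dpm2* (-0.0030), *Dpm3* (-0.11), *Man1c1* (-0.022), *Ostc* (-0.074) and *Prkcsh* (0.0076). Genes measured at few counts, such as *Man1a* and *Calr3*, have wide intervals.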
